A study of Homo sapiens with 32 samples.

Results

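Loops that lie wholly inside very long genes were counted in 4 chromatin loop lists of human HEK293 cells. A loop was a member when both of its 5 kb anchors lay within the body of the same protein-coding gene of 500 kb or longer and neither anchor held the start of a protein-coding gene. The 4 lists held 1404 such loops among 45629. The annotation holds 322 genes of that length on the 23 chromosomes analysed, of 19970 protein-coding genes, and together they cover 268 Mb, or 8.85% of the chromosome sequence. All anchors of these loops lie inside the gene body by construction, and the rule used no measured value of the loops.

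The loops come from in situ Hi-C, in which neighbouring DNA ends are ligated inside intact nuclei, so that sequenced ligation products report which segments lay close together. The series holds 32 samples, of which 14 belong to the conditions described here. HEK293 is a line of human embryonic kidney cells, for which the growth protocol in the labels writes HEK293T. Wild-type cells were left untreated (WT control, 3 labelled replicates) or were exposed to 200 mM sorbitol for 1 h (WT sorbitol, 3 replicates). HEK293 cells of the genotype eGFP-YAP, in which the transcriptional co-activator YAP carries a green fluorescent protein, were likewise untreated (4 replicates) or treated with 200 mM sorbitol for 1 h (4 replicates). Sorbitol draws water out of cells and so serves as a hyperosmotic stress. The design text describes serum starvation for 1 h before the stress in the eGFP-YAP cells and gives no such step for wild type. How the tagged YAP is expressed, and whether the line is a single clone, is not given in the labels. Each condition has 1 deposited loop list, so the differences described here have no replicate check and no test between conditions could be made. Bracketed ranges are exact 95% intervals for counts and order-statistic intervals for medians. They take in the error of counting alone, and neighbouring loops are not independent. The sequencing depth behind each list is unknown, and the list names of the lines also differ in a source name, so that line and source cannot be told apart. The other 18 samples were not analysed here.

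Many chromatin loops form when cohesin extrudes DNA until it meets CTCF, a zinc finger protein whose motif has a direction, and loops often join motifs that point towards each other. Very long genes are made up almost wholly of introns, and many of them encode adhesion molecules, receptors and channels of the nervous system. RNA polymerase takes hours to cross such a gene, and several of them lie at common fragile sites, regions that break when DNA replication is slowed.

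Sequences of single anchors are shown first as examples, and most members had no CTCF motif at either anchor. The 14-base CTCF core consensus was looked for on either strand, allowing 1 mismatch, and matches are shown here for loops that were called in both lines. PDE4D and ROBO1 hold loops found in all 4 lists, and CAMTA1, RABGAP1L, an unnamed gene (ENSG00000282278) and NAV3 hold 4 of the 5 highest-scoring loops (at most 1 per gene) found in both control lists and in neither sorbitol list. The remaining gene, KCNIP4, which ranked 3 of 5, has no match at its anchors. The highest-scoring loops of all 4 lists in KCNAB1, PLXNA4 and PCDH9 also have no match at their WT control anchors. All matches printed are those at WT control anchors, and the anchors of a matched loop can differ between lists. In the WT sorbitol list the partner loop in PLXNA4 has a match at both anchors, and that in PCDH9 has one at its right anchor. Each line gives 50 bases of hg38 with the match in capitals, read 5′ to 3′ on the strand of the match.

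PDE4D, left anchor, plus strand, chr5:59188596-59188645: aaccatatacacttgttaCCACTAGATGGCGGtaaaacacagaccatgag
ROBO1, right anchor, minus strand, chr3:79032882-79032931: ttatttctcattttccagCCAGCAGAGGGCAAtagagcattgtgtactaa
CAMTA1, left anchor, plus strand, chr1:7667747-7667796: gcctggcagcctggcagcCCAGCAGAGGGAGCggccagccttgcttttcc
CAMTA1, right anchor, minus strand, chr1:7752979-7753028: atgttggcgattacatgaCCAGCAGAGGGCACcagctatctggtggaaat
RABGAP1L, left anchor, plus strand, chr1:174258230-174258279: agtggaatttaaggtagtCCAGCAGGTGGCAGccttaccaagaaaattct
ENSG00000282278, left anchor, minus strand, chr4:53914907-53914956: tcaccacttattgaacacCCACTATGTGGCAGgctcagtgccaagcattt
ENSG00000282278, right anchor, minus strand, chr4:54217960-54218009: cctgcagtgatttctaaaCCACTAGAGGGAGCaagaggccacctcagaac
NAV3, right anchor, minus strand, chr12:77925895-77925944: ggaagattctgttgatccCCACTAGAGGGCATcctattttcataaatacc

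All 8 matches lie in introns of the canonical transcripts of these genes. The matches in PDE4D, in RABGAP1L and at the right anchor of CAMTA1 have 0 mismatches, and the other 5 have 1. In CAMTA1 the match at the left anchor is on the plus strand and that at the right anchor on the minus strand, so they face each other across 85 kb. In ENSG00000282278 both matches are on the minus strand. The motif with at most 1 mismatch occurs in 6.25% of the 53283 bins of 5 kb inside very long genes, so a match at an anchor is a description of sequence and not of CTCF binding.

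Very long genes held fewer loops in the sorbitol list than in the control list of each line. The WT control list held 609 of them among 15180 loops, 4.01% (3.71 to 4.34), and the WT sorbitol list 130 among 5906, 2.20% (1.84 to 2.61). Of the eGFP-YAP lists the control list had 618 among 18966, 3.26% (3.01 to 3.52), and the sorbitol list 47 among 5577, 0.843% (0.620 to 1.12). The share of the list that lay inside these genes was thus lower with sorbitol in both lines, and the intervals of control and sorbitol did not overlap. The 2 control lists were close in number, whereas the sorbitol lists held 130 and 47.

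As a ratio of sorbitol to control, the loops inside very long genes gave 0.213 (0.175 to 0.258) in WT and 0.0761 (0.0553 to 0.102) in eGFP-YAP cells. These ratios rest on lists of unequal length, and with the lower-scoring control loops left out until both lists were of 1 size they were 0.640 and 0.309. By that cut the ratio of all loops together is fixed at 1, and the other classes were not recomputed. In the full lists all loops together gave 0.389 (0.377 to 0.401) and 0.294 (0.285 to 0.303), a value that includes loops at gene starts, which the members lack by rule. All other loops without a gene start at either anchor gave 0.292 (0.282 to 0.303) in WT and 0.213 (0.205 to 0.221) in eGFP-YAP. This class includes loops with only 1 anchor inside a very long gene. The members lay below this class in both lines, with intervals that did not overlap.

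In WT, however, the ratio inside very long genes could not be told apart from that of 2 neighbouring classes. Loops inside genes of 100 to 500 kb gave 0.242 (0.204 to 0.285) there, and loops with both anchors outside protein-coding genes gave 0.242 (0.224 to 0.260), and both intervals overlap that of the members. In eGFP-YAP cells the same classes gave 0.161 (0.131 to 0.195) and 0.186 (0.172 to 0.201), both above the interval of the members. Loops with only 1 anchor inside a very long gene gave 0.191 (0.161 to 0.225) in WT and 0.154 (0.1299 to 0.181) in eGFP-YAP, so that in eGFP-YAP these too lay above the loops with both anchors inside. Loops from the start of a very long gene into its own body were few, 23 in control and 4 with sorbitol in WT and 26 and 7 in eGFP-YAP, and their ratios of 0.174 (0.0437 to 0.509) and 0.269 (0.0987 to 0.637) have wide intervals. Whether the lines differ in the ratio of the members relative to other loops was not tested.

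**Figure D1:**
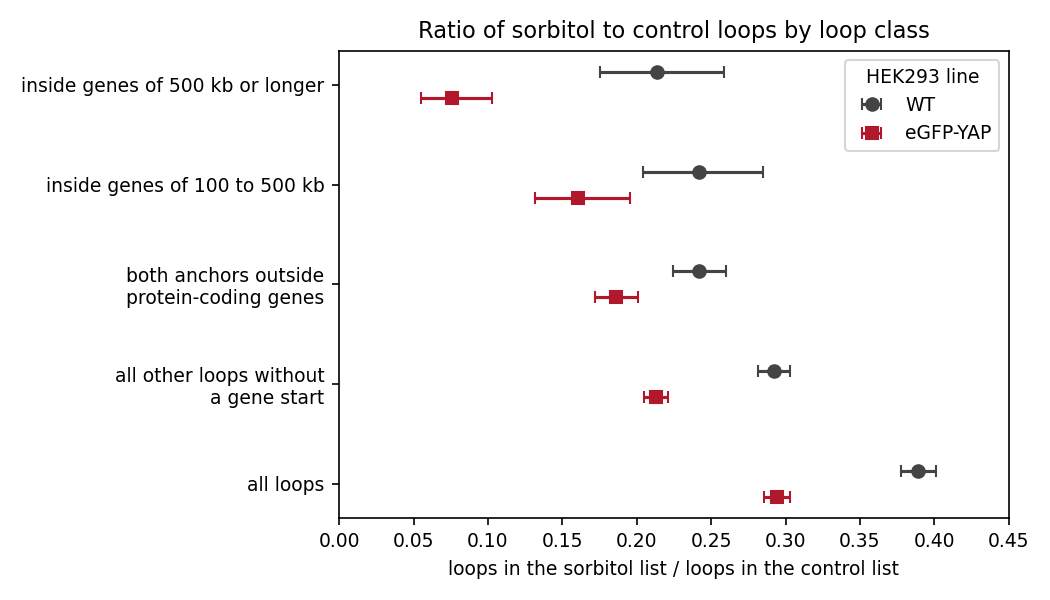
Ratio of the number of loops in the sorbitol list to that in the control list (horizontal axis) for 5 classes of loops in WT (dark grey circles) and eGFP-YAP (red squares), with exact 95% intervals as bars. The eGFP-YAP ratio inside genes of 500 kb or longer, 0.0761, lies left of the other 4 classes of that line, while the WT ratio, 0.213, overlaps the classes inside genes of 100 to 500 kb and outside protein-coding genes.

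The ratio was then followed along gene length. In eGFP-YAP cells it was 0.256 (0.185 to 0.350) for loops inside genes of 100 to 200 kb, 0.143 (0.0960 to 0.206) at 200 to 300 kb and 0.113 (0.0772 to 0.160) at 300 to 500 kb. Inside the 172 genes of 500 to 750 kb it was 0.103 (0.0641 to 0.159), inside the 79 genes of 750 to 1000 kb 0.05 (0.0225 to 0.0971), and inside the 71 genes of 1000 kb or longer 0.0698 (0.0384 to 0.118). The intervals of neighbouring classes overlap throughout, and only those at 100 to 200 kb lie clear of the 3 longest classes. In WT the ratio was 0.329 (0.246 to 0.434) at 100 to 200 kb and between 0.190 and 0.256 in the 5 longer classes, with intervals that overlap each other.

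The density of control loops also varied with gene length. WT control loops numbered 6.89 per 10 Mb of gene at 100 to 200 kb, 13.8 at 200 to 300 kb and 16.2 at 300 to 500 kb, and then 25.05, 26.9 and 16.9 in the 3 classes from 500 kb upwards. Genes of 1000 kb or longer were thus close to those of 300 to 500 kb. Both anchors must lie inside the gene, so a short gene can hold only short loops and the densities are not on an equal footing. With sorbitol the WT densities of these 3 classes were 5.07, 5.13 and 4.33 per 10 Mb, and in eGFP-YAP cells they were 2.24, 1.32 and 1.51.

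The 3 genes nearest to the length limit on each side held few loops. AFF2, ANO5 and SPOCK3, at 500.05, 501 and 501 kb the shortest genes that qualified, held 0 loops in each of the 4 lists. The next longer gene, KCNAB1 (501.4 kb), held 5, 2, 4 and 4 in the order WT control, WT sorbitol, eGFP-YAP control and eGFP-YAP sorbitol. Just under the limit, CACNA2D1 (498 kb) held 1 loop in the eGFP-YAP control list, and ITPR2 (498 kb) and DIAPH3 (498 kb) each held 1 in both control lists and 0 in both sorbitol lists.

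Loops called with sorbitol were mostly other loops than those called in control. A control loop was taken as called again if the sorbitol list held a loop with both anchors centred no more than 10 kb away. Of the WT control loops inside very long genes 31 of 609 were called again with sorbitol, 5.09% (3.48 to 7.15), against 7.81% of all WT control loops, which leaves 578 members without a partner and 92.2% of all. In eGFP-YAP cells 15 of 618 were called again, 2.43% (1.36 to 3.97), against 9.28% of all control loops of that line, which leaves 603 members without a partner and 90.7% of all. Both shares of the members lay below the whole list, and also below other loops without a gene start, 7.34% in WT and 8.65% in eGFP-YAP, by more than the members' interval, narrowly so in WT. The members could not be told apart from loops inside genes of 100 to 500 kb, of which 5.77% were called again in WT and 3.51% in eGFP-YAP. In WT the members' interval also includes the 5.38% of loops with 1 anchor inside a very long gene and the 7.04% of loops outside protein-coding genes, while in eGFP-YAP these classes, at 7.36 and 9.45%, lie above it. With fewer sorbitol loops in these genes there was also less to match, since 47 loops had to serve 618.

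Seen from the sorbitol lists the members resembled the lists as a whole. In WT 98 of 130 had no control loop within 10 kb, 75.4% (67.1 to 82.5), against 79.9% of all WT sorbitol loops, and 32 had one, against 20.1% of all. In eGFP-YAP cells 32 of 47 had none, 68.1% (52.9 to 80.9), against 68.4% of all, and 15 had one, against 31.6% of all. Both background values lie within the members' intervals.

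Between the lines, control loops inside very long genes found partners in a larger share than between conditions. Of the WT control loops 187 of 609 had a partner in the eGFP-YAP control list, 30.7% (27.1 to 34.5), against 40.2% of all WT control loops. Of the eGFP-YAP control loops 190 of 618 had a partner in the WT control list, 30.7% (27.1 to 34.5), against 32.2% of all. The WT share lay below that of its list, and the eGFP-YAP interval includes the value of its list. The WT interval also includes the 34.2% of loops inside genes of 100 to 500 kb and the 34.3% of loops outside protein-coding genes. Loops only partly inside a very long gene, at 35.7%, and other loops without a gene start, at 39.7%, lie above it. When the other line's control list was cut by score to the size of a sorbitol list (5906 and 5577 loops), 73 of 609 WT members, 12.0% (9.51 to 14.8), and 99 of 618 eGFP-YAP members, 16.0% (13.2 to 19.2), still had a partner there. The same matching gave 19.5% of all WT and 17.7% of all eGFP-YAP control loops, so the WT members lay below their list and the eGFP-YAP interval includes the value of its list. Both member shares exceed the 5.09% and 2.43% called again with sorbitol, although the shortened control lists also held more loops inside these genes, 164 and 190. With sorbitol 9 of 130 WT loops had a partner in the eGFP-YAP sorbitol list, 6.92% (3.21 to 12.7), against 24.2% of all WT sorbitol loops. In the other direction 8 of 47 had one, 17.0% (7.65 to 30.8), against 25.7% of all. Only the WT interval lies below its background value. It includes the 11.1% of WT sorbitol loops inside genes of 100 to 500 kb, so the members could not be told apart from that class. WT sorbitol loops only partly inside a very long gene, at 16.5%, and those outside protein-coding genes, at 20.05%, lie above it.

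At least 1 loop was found in 183 of the 322 genes in the WT control list, in 67 in the WT sorbitol list, in 207 in the eGFP-YAP control list and in 30 in the eGFP-YAP sorbitol list. In all, 238 genes held a loop in at least 1 list, 84 held none and 18 held a loop in each of the 4 lists. Of the 183 genes of the WT control list 156 were also in the eGFP-YAP control list, which is 85.2% of the former and 75.4% of the latter. Of these 156 genes 93 held no loop in either sorbitol list, but both sorbitol lists are shorter as a whole and no such share over other genes is given here. The sorbitol lists shared 20 genes, 29.9% of the WT and 66.7% of the eGFP-YAP set.

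The number of loops per gene was low. The median over genes with a loop was 2 in each control list and 1 in each sorbitol list, and the highest counts were 15, 9, 19 and 4 in the order WT control, WT sorbitol, eGFP-YAP control and eGFP-YAP sorbitol. Fewer loops with sorbitol than in control were found in 172 of 193 genes with a loop in WT and in 198 of 209 in eGFP-YAP. More were found in 12 genes in WT and in 2 in eGFP-YAP. Of genes with 5 or more control loops, 17 of 49 held no sorbitol loop in WT and 35 of 43 held none in eGFP-YAP. The whole lists were shorter with sorbitol too, with ratios over all loops of 0.389 in WT and 0.294 in eGFP-YAP. No such counts over shorter genes are given here, so these are not read as particular to very long genes. Across the 322 genes the Spearman correlation of loop counts was 0.677 between the control lists and 0.395 between the sorbitol lists, and that of gene length with the control count was 0.102 in WT and 0.266 in eGFP-YAP. These correlations describe genes, which share lists and are not independent replicates, and most sorbitol counts are 0.

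The gene with the most loops was PDE4D on chromosome 5, which encodes a phosphodiesterase that breaks down cyclic AMP. It held 14 loops in WT control, 3 in WT sorbitol, 19 in eGFP-YAP control and 4 in eGFP-YAP sorbitol. Its ratios, 0.214 (0.0395 to 0.768) and 0.211 (0.0521 to 0.633), were close to each other, and 11 of its 14 WT control loops had a partner in the eGFP-YAP control list. The control anchors reached from 355 to 1495 kb from the gene start in WT and from 135 to 1485 kb in eGFP-YAP. With sorbitol they lay between 725 and 1350 kb in WT and between 720 and 1335 kb in eGFP-YAP, which is the same stretch of the gene in both lines. Of its 4 sorbitol loops in eGFP-YAP, 3 had a control partner.

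ROBO1, the receptor for Slit proteins in axon guidance, held 11 loops in WT control, 2 in WT sorbitol, 10 in eGFP-YAP control and 4 in eGFP-YAP sorbitol. Its control anchors began 40 kb from the gene start in WT and 45 kb in eGFP-YAP, and its sorbitol anchors began at 745 and 725 kb. In this gene too the loops called with sorbitol lay in the part far from the start in both lines. The matched loop of all 4 lists is among them.

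TBC1D5, a GTPase-activating protein for Rab proteins in endosomal sorting, held 12 loops in WT control, 3 in WT sorbitol, 11 in eGFP-YAP control and 0 in eGFP-YAP sorbitol. RARB, a retinoic acid receptor, held 14, 1, 7 and 0 in the same order. RAD51B, which acts in repair by homologous recombination, held 15, 4, 3 and 0. TRPM3, a cation channel, held 7, 2, 11 and 0. In these 4 genes sorbitol loops were found in WT and not in eGFP-YAP cells, although the upper limits that 0 loops allow for the eGFP-YAP ratio are 0.398 in TBC1D5, 0.694 in RARB, 2.42 in RAD51B and 0.398 in TRPM3.

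In 4 other genes no loop was found with sorbitol in either line. BCAS3 held 7 in WT control and 10 in eGFP-YAP control. GALNTL6, of the family of enzymes that begin mucin-type glycosylation, held 10 and 7. PDE10A, a phosphodiesterase of cyclic AMP and cyclic GMP, held 9 and 5. RABGAP1L, another activator of Rab GTPases, held 7 and 7. PRKG1, the cyclic GMP-dependent protein kinase, held 8 loops in each control list, 0 in WT sorbitol and 2 in eGFP-YAP sorbitol.

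Other genes were among those with the most sorbitol loops. In this and the next paragraph only LRP1B, in WT, held more loops with sorbitol than in control. LRMDA, named for a part in melanocyte differentiation, held 13 loops in WT control and 9 in WT sorbitol, a ratio of 0.692 (0.261 to 1.75), but 5 in eGFP-YAP control and 0 in eGFP-YAP sorbitol. Of its 9 WT sorbitol loops 3 had a WT control partner. PCDH9, a protocadherin of cell adhesion, held 6 in WT control, 6 in WT sorbitol, 4 in eGFP-YAP control and 2 in eGFP-YAP sorbitol, with a WT control partner for 3 of its 6 WT sorbitol loops, and its nearest anchors lay 3 and 8 kb from the gene start in WT and eGFP-YAP lists respectively. MACROD2, an enzyme that removes ADP-ribose and a common fragile site gene, held 8, 6, 2 and 1. The unnamed gene ENSG00000285708, which overlaps the transcription factor gene FOXP1 and shares loops with it, held 7, 6, 5 and 2. Of the 6 WT sorbitol loops of each of these last genes, MACROD2 and ENSG00000285708, 2 had a WT control partner.

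Further genes of this kind had small counts. KCNAB1, a beta subunit of potassium channels, held 5 loops in WT control, 2 in WT sorbitol, 4 in eGFP-YAP control and 4 in eGFP-YAP sorbitol. NFIA, a transcription factor, held 5, 3, 3 and 3. SYN3, a synaptic vesicle phosphoprotein, held 6, 2, 5 and 3. LRP1B, of the low-density lipoprotein receptor family, held 1, 4, 3 and 2. These counts leave wide intervals, such as 0.186 to 5.37 around a ratio of 1 for KCNAB1 in eGFP-YAP and 0.396 to 197 around a ratio of 4 for LRP1B in WT. The genes were named for having many sorbitol loops, so their high ratios are a description and carry no test.

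**Figure D2:**
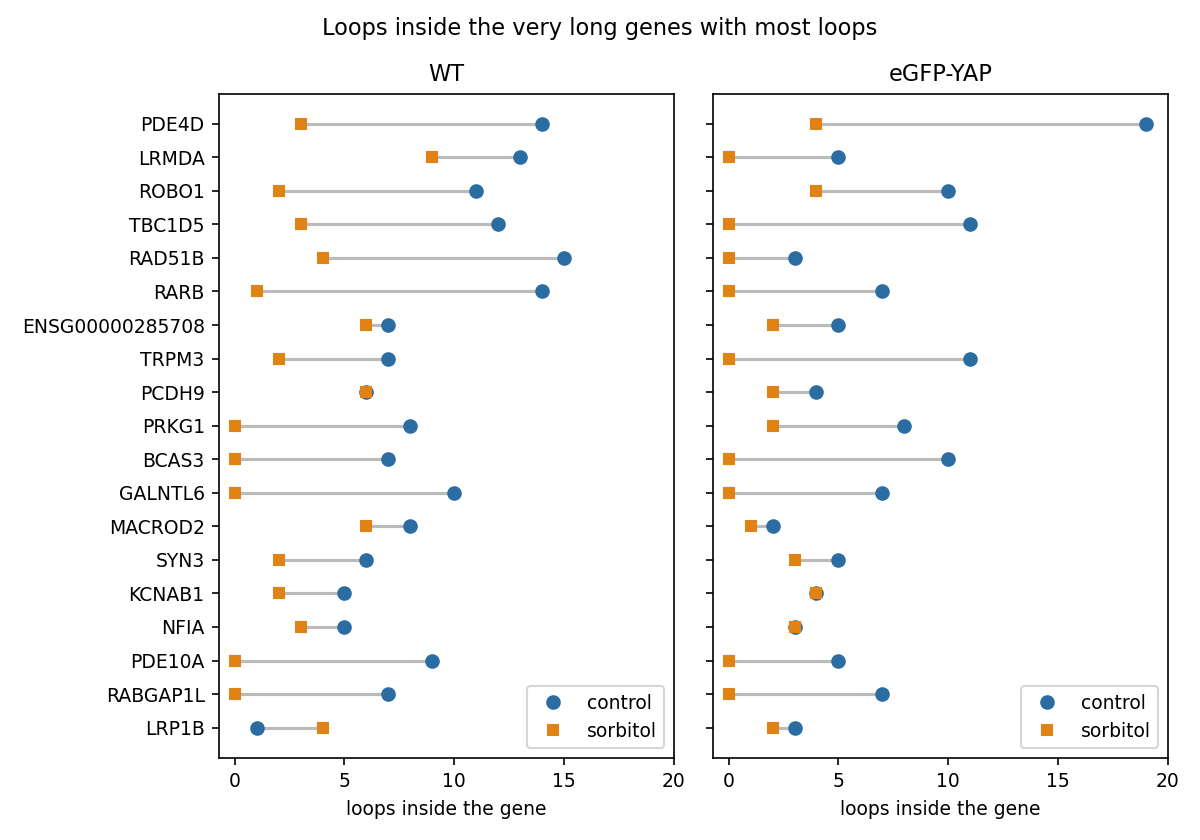
Number of loops inside each of 19 very long genes (horizontal axis) in control (blue circles) and sorbitol lists (orange squares) of WT (left) and eGFP-YAP cells (right), joined by a line for each gene. The genes are those with the most loops in the control lists or in the sorbitol lists, and PDE4D at the top goes from 14 to 3 and from 19 to 4.

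The only gene with more loops with sorbitol in both lines was SORCS1, a sorting receptor, with 1 in WT control, 2 in WT sorbitol, 0 in eGFP-YAP control and 1 in eGFP-YAP sorbitol. Loops in a sorbitol list and in no control list were found in LINGO2, MGAT4C, SNTG1 and SOX5, with 1 WT sorbitol loop each. The longest gene with a loop was RBFOX1, a splicing regulator of 2474 kb, with a single loop in eGFP-YAP control. The longest gene without any was CSMD1, of 2060 kb. Genes outside the naming rule (SORCS1 and the 4 with loops in WT sorbitol alone) were named after their counts were seen.

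**Figure D3:**
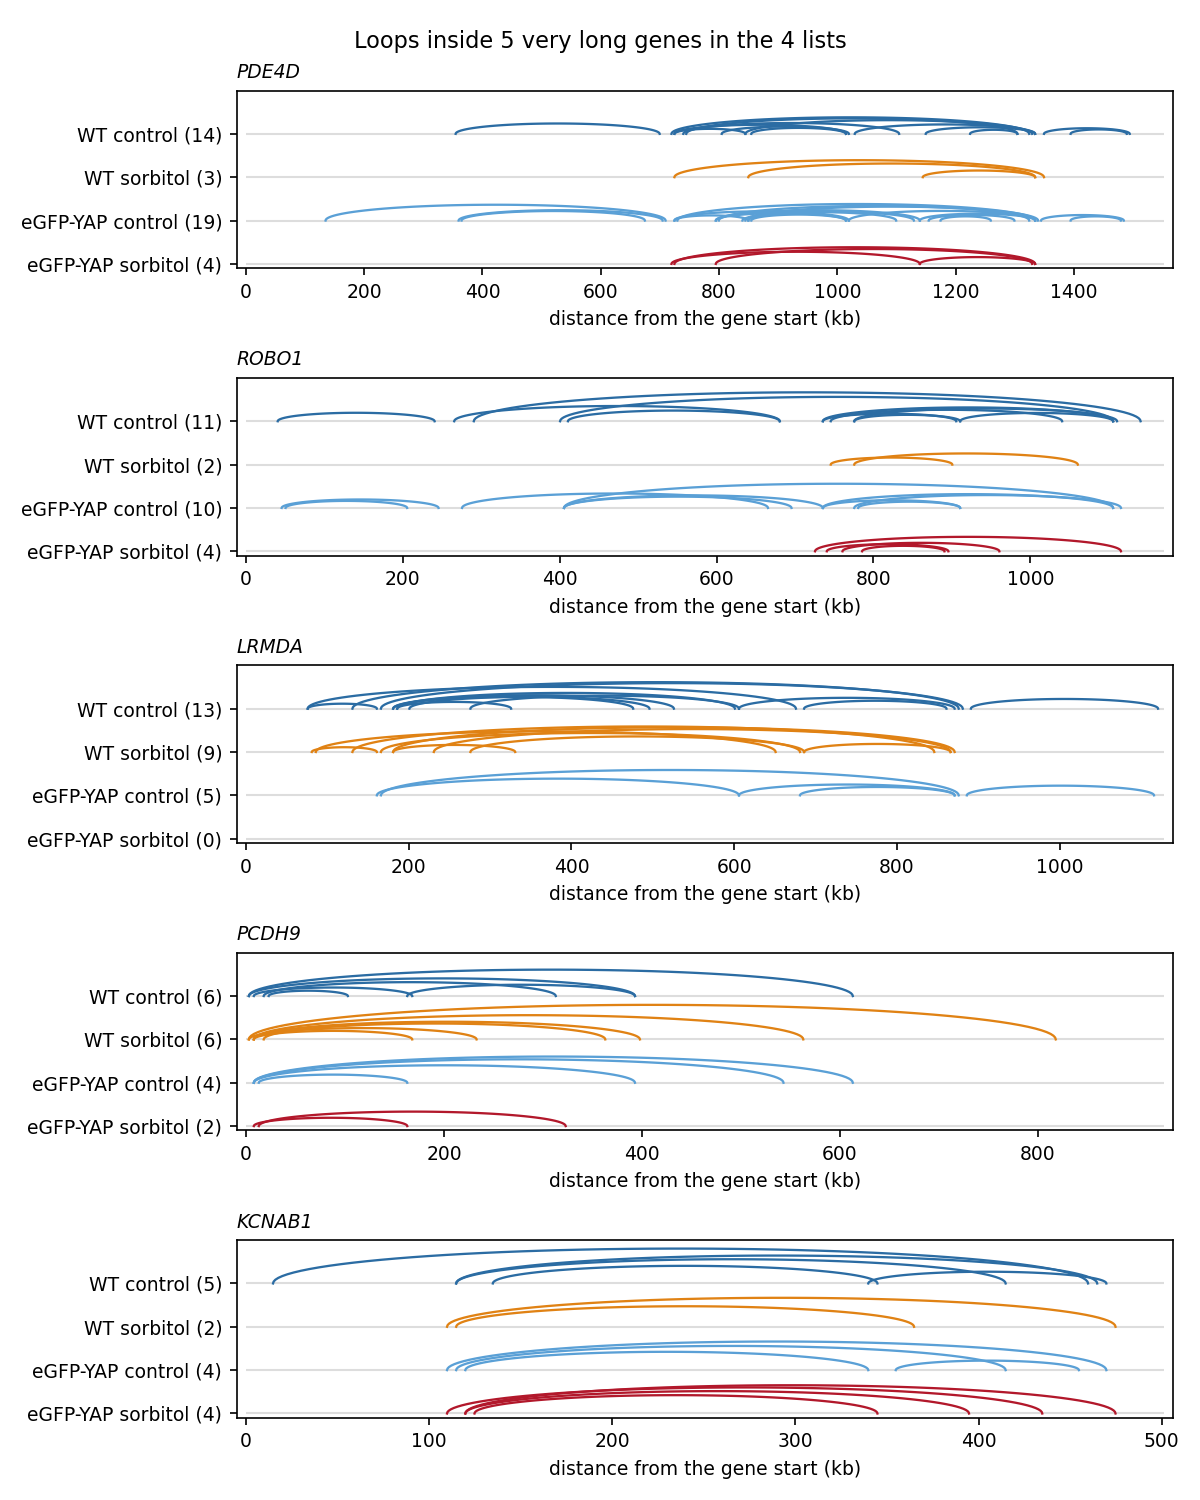
Loops inside PDE4D, ROBO1, LRMDA, PCDH9 and KCNAB1 drawn as arcs between their anchor centres by distance from the gene start in kb (horizontal axis), with 1 line for each list and the number of loops in brackets. In PDE4D the sorbitol arcs lie between 720 and 1350 kb in both lines, and LRMDA has 9 arcs in WT sorbitol and 0 in eGFP-YAP sorbitol.

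Genes were also grouped by function in 7 lists, which were written with earlier results of these data known. The 19 common fragile site genes held 38 loops in WT control, 15 in WT sorbitol, 43 in eGFP-YAP control and 4 in eGFP-YAP sorbitol, with ratios of 0.395 (0.202 to 0.735) and 0.0930 (0.0243 to 0.256). Fewer loops with sorbitol were found in 9 of these genes and more in 1 in WT, and fewer in 15 and more in 1 in eGFP-YAP. Another example beside MACROD2 and LRP1B is AUTS2, with 9, 0, 2 and 0 loops in the order used above. MACROD2 and LRP1B together gave 10 of the 15 WT sorbitol loops of this list.

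The 45 genes of cell adhesion and axon guidance held 55, 13, 82 and 8 loops, with ratios of 0.236 (0.118 to 0.438) in WT and 0.0976 (0.0408 to 0.201) in eGFP-YAP. Beside ROBO1 and PCDH9, PTPRD, a receptor tyrosine phosphatase, held 4, 0, 8 and 0, and GPC5, a glypican, held 4, 0, 6 and 0. The 21 genes of ion channels and transmitter receptors held 23, 4, 31 and 0 loops, a WT ratio of 0.174 (0.0437 to 0.509) and an upper limit of 0.126 in eGFP-YAP. Of these KCNMA1, a calcium-activated potassium channel, held 7, 0, 2 and 0. CACNA1C, a calcium channel, held 2, 1, 4 and 0, and RYR2, the calcium release channel of the heart, held 1, 0, 5 and 0.

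Phosphodiesterases, kinases and growth factor signalling, with 19 genes, held 47, 6, 67 and 8 loops and gave 0.128 (0.0446 to 0.299) and 0.119 (0.0495 to 0.249). MAGI2, a scaffold protein, held 2, 0, 8 and 0 in this list. The 14 transcription factors and chromatin regulators held 46, 16, 32 and 5 loops and gave 0.348 (0.184 to 0.626) and 0.156 (0.0475 to 0.404). Among them were MECOM with 8, 3, 3 and 1, NPAS3 with 5, 1, 7 and 0 and ZFPM2 with 5, 2, 6 and 0.

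The 10 genes of the cytoskeleton and basement membrane held 23, 2, 21 and 2 loops and gave 0.0870 (0.00994 to 0.352) and 0.0952 (0.0108 to 0.390). FRMD4A held 9, 0, 4 and 0 of them, NAV2 held 6, 1, 3 and 2, and DMD, which encodes dystrophin, held 2, 0, 4 and 0. The 4 genes of RNA-binding proteins held 5, 4, 5 and 0 loops, and RBFOX3, a neuronal splicing regulator, accounted for all 4 with WT sorbitol. CELF2 held 1 loop in eGFP-YAP control alone, and RBMS3 1 in WT control alone. The intervals of all 7 lists included the ratio of the whole class in both lines.

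Control members ranked somewhat lower by score than their lists, and in WT control they were somewhat longer. The median span of members was 260 kb (245 to 275) in WT control, 252.5 kb (215 to 310) in WT sorbitol, 277.5 kb (260 to 295) in eGFP-YAP control and 270 kb (175 to 335) in eGFP-YAP sorbitol, against 240, 215, 260 and 230 kb for all loops of the lists. Only the WT control interval lies above the value of its list, the intervals of the others reach or include it, and those of control and sorbitol members overlap within each line. The WT control interval reaches the 245 kb of other loops without a gene start. The shortest members spanned 45 kb in both control and 35 kb in both sorbitol lists. The median member covered 31.2% of its gene in WT control and 29.3% in eGFP-YAP sorbitol. By the caller's peak score the median member stood at percentile 44.5 (41.3 to 48.6) of the WT control list, 43.3 (36.2 to 54.1) of WT sorbitol, 45.6 (43.1 to 49.8) of eGFP-YAP control and 52.5 (30.8 to 68.8) of eGFP-YAP sorbitol. Loops inside genes of 100 to 500 kb stood at 32.5, 33.8, 26.1 and 22.9 in the same order. These values lie below the members' intervals, so a low rank was not particular to very long genes. Loops outside protein-coding genes, at 51.9 in WT control and 54.7 in eGFP-YAP control, stood above the members' intervals. All other loops stood at 50.2, 50.1, 50.1 and 49.9, which both control intervals of the members exclude and both sorbitol intervals include. Control members that were called again stood higher, at 65.4 (48.2 to 87.6) in WT and 78.7 (72.6 to 95.5) in eGFP-YAP.

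The ratio was also taken within classes of span. In eGFP-YAP cells it was 0.0795 (0.0402 to 0.143) for members of 100 to 200 kb, 0.0681 (0.0421 to 0.105) for 200 to 500 kb and 0.0495 (0.0157 to 0.119) for 500 kb and over. Other loops without a gene start gave 0.217, 0.210 and 0.204 in these classes, each above the members' interval. In WT the members gave 0.195 (0.131 to 0.283), 0.182 (0.135 to 0.241) and 0.279 (0.170 to 0.443) against 0.294, 0.290 and 0.260, so that at 500 kb and over the members were not below the others. Members under 100 kb gave 0.467 (0.229 to 0.908) in WT from 14 and 30 loops and 0.186 (0.0755 to 0.400) in eGFP-YAP from 8 and 43, with intervals that include the values of other loops, 0.344 and 0.233.

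The ratio of other loops without a gene start rose with the GC content of the anchors, while that of the members showed no steady rise. The median GC content of the anchors of members was 39.65% in WT control, 38.9% in WT sorbitol, 38.8% in eGFP-YAP control and 39.5% in eGFP-YAP sorbitol. All loops of these lists had 42.6, 46.3, 42.6 and 46.9%, and the bins of very long genes had a median of 38.0%. Members and other loops without a gene start were therefore set side by side in 5 GC classes, each with 20% of the control list, from class 1 with the lowest anchor GC content to class 5 with the highest. In WT the others gave a ratio of 0.195 (0.178 to 0.214) in class 1 and 0.492 (0.458 to 0.529) in class 5. The members gave 0.244 (0.180 to 0.325), from 59 and 242 loops, in class 1, 0.220 (0.144 to 0.326) in class 2 and 0.175 (0.105 to 0.280) in class 3, and these 3 intervals include the values of the others, 0.195, 0.215 and 0.266. In class 4 they gave 0.118 (0.0545 to 0.227) against 0.327 (0.302 to 0.354), below the others, and in class 5 0.429 (0.173 to 0.976) from 9 and 21 loops.

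In eGFP-YAP cells the members gave 0.0753 (0.0459 to 0.117) in class 1 against 0.114 (0.102 to 0.127) for the others, with intervals that overlap. In class 2 they gave 0.0577 (0.0259 to 0.112) against 0.154 (0.140 to 0.169), and in the other 3 classes 0.0947, 0.0806 and 0.115 against 0.196, 0.261 and 0.390. From class 2 upwards the members' intervals lie below the values of the others. Weighting the other loops without a gene start to the GC classes of the members moved their ratio from 0.292 to 0.242 in WT and from 0.213 to 0.163 in eGFP-YAP. The WT value then lies within the members' interval of 0.175 to 0.258, and the eGFP-YAP value lies above the members' interval of 0.0553 to 0.102. The part of base composition in the ratios was not tested.

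**Figure D4:**
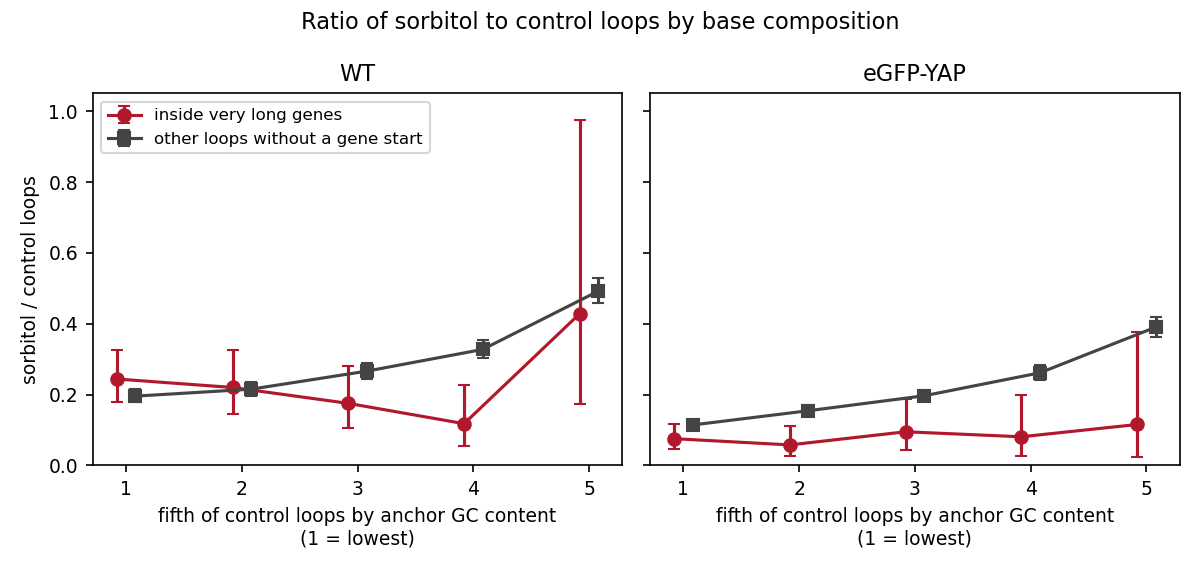
Ratio of sorbitol to control loops (vertical axis) in 5 classes of anchor GC content, from the lowest, 1, to the highest, 5 (horizontal axis), for loops inside very long genes (red circles) and other loops without a gene start (dark grey squares) in WT (left) and eGFP-YAP (right), with exact 95% intervals. In WT the intervals overlap in all classes but class 4, and in eGFP-YAP the members' point lies below that of the others in all 5.

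Anchors of members were spread along the genes. The 20% of the gene length nearest the start held 19.5% of the anchors in WT control, 21.9% in WT sorbitol, 19.3% in eGFP-YAP control and 25.5% in eGFP-YAP sorbitol, and the 20% nearest the end held 24.3, 20.4, 23.3 and 14.9%. The 609 WT control loops used 1083 distinct anchors, of which 111 served 2 or more loops, and the 618 eGFP-YAP control loops used 1068, of which 143 did. With sorbitol 20 of 238 anchors in WT and 5 of 89 in eGFP-YAP served 2 or more.

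Most of the loops joined intron to intron. Of the WT control members 66.2% (62.3 to 69.9) had no exon of any transcript of a very long gene at either anchor, and the shares were 63.8% (55.0 to 72.1) in WT sorbitol, 62.0% (58.0 to 65.8) in eGFP-YAP control and 51.1% (36.1 to 65.9) in eGFP-YAP sorbitol. Anchors nevertheless held exons somewhat more often than the genes did as a whole. An exon lay in 18.4% (16.1 to 20.8) of WT control anchors, 19.3% (14.5 to 24.9) of WT sorbitol anchors, 20.3% (17.9 to 22.9) of eGFP-YAP control anchors and 25.8% (17.1 to 36.2) of eGFP-YAP sorbitol anchors, against 14.02% of all bins in these genes. A start of some transcript of a very long gene lay in 6.09% (4.74 to 7.69), 5.88% (3.25 to 9.67), 6.37% (4.98 to 8.0) and 8.99% (3.96 to 16.9) of the anchors, against 3.55% of bins. The WT sorbitol interval includes the value of the bins. Bins with a protein-coding gene start were left out, as in the rule for members.

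The CTCF motif was found in 17.3% (15.1 to 19.7) of WT control anchors and 26.5% (23.9 to 29.3) of eGFP-YAP control anchors of members, above the 6.25% of bins. It was found in 13.03% (9.02 to 17.98) of WT sorbitol and 16.9% (9.75 to 26.3) of eGFP-YAP sorbitol anchors, also above the bins. Anchors of all loops had it more often in each list, in 23.2, 20.9, 30.1 and 27.7% of cases in the order used above, and these values lie above the members' intervals. Anchors of sorbitol loops without a control partner had the motif in 11.3% (7.13 to 16.7) of cases in WT and 10.9% (4.51 to 21.2) in eGFP-YAP, and the latter interval includes the 6.25% of bins. In eGFP-YAP the 27 anchors of sorbitol loops with a control partner had it in 33.3% (16.5 to 54.0) of cases. In WT the 61 anchors of such loops had it in 18.03% (9.36 to 30.0), which overlaps the anchors without a partner, as the eGFP-YAP interval does. Among WT control members the share was 16.4% with and 17.4% without a sorbitol partner, and among eGFP-YAP control members 44.4% (25.5 to 64.7) and 26.3% (23.6 to 29.1).

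Most members had no motif at either anchor, 68.0% in WT control, 75.4% in WT sorbitol, 51.8% in eGFP-YAP control and 68.1% in eGFP-YAP sorbitol. All loops of the lists gave 57.8, 63.0, 46.1 and 54.9% in the same order. The members lay above these values by more than their interval in 3 lists, and in eGFP-YAP sorbitol the interval of 52.9 to 80.9 includes it. In loops with motifs at both anchors and on 1 strand at each, they faced each other in 16 of 24 WT control loops, 66.7% (44.7 to 84.4), and in 40 of 58 eGFP-YAP control loops, 69.0% (55.5 to 80.5). All loops of these lists gave 67.4% and 76.2%, both within the members' intervals. The sorbitol lists had 3 of 4 and 2 of 3 such loops, too few to compare.

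**Figure D5:**
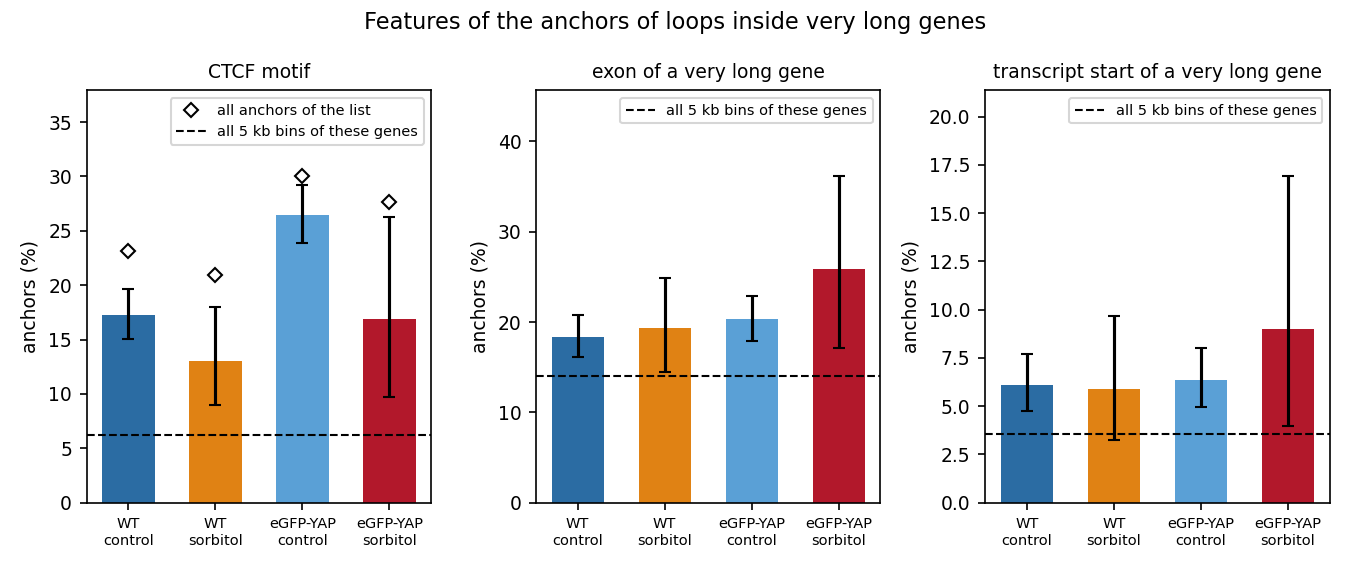
Share of the distinct anchors of loops inside very long genes, in percent (vertical axes), that hold a CTCF motif (left), an exon (middle) or a transcript start of a very long gene (right) in the 4 lists, with exact 95% intervals. Dashed lines give the share of all 5 kb bins in these genes, 6.25, 14.02 and 3.55%, and diamonds the share among the anchors of all loops of the list. Every motif bar lies above its dashed line and below its diamond.

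Single loops were followed across the lists. In all 4 lists 6 loops were found, in PDE4D, KCNAB1, PLXNA4, ROBO1 and PCDH9, which held 2 of them. Of all control loops 7.81% in WT and 9.28% in eGFP-YAP had a sorbitol partner in the same line. That condition is looser than presence in all 4 lists, for which no share of all loops is given here. Coordinates are those of the WT lists on hg38. The loop in PDE4D joined chr5:59185001-59190000, which holds exon 4 of the 15 exons of the canonical transcript, to chr5:59370001-59375000 in intron 1, over 185 kb. The motif printed above for PDE4D lies in its left anchor. Its score percentile was 95.8 in WT control, 83.3 in WT sorbitol, 95.5 in eGFP-YAP control and 52.5 in eGFP-YAP sorbitol.

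The loop in KCNAB1 joined chr3:156150001-156155000 in intron 1 to chr3:156500001-156505000 in intron 8 over 350 kb, with no motif at either anchor. In PLXNA4, a semaphorin receptor, chr7:132320001-132325000 in intron 3 was joined to chr7:132575001-132580000 over 255 kb. That right anchor holds exon 1 of the canonical transcript and a transcript start, while the annotated start of the gene lies outside it. The ROBO1 loop joined chr3:78860001-78865000 in intron 4 to chr3:79030001-79035000 in intron 3 over 170 kb. This right anchor, of the WT control list, holds the ROBO1 match printed above. The right anchors of its sorbitol partners, chr3:79020001-79025000 in WT and chr3:79025001-79030000 in eGFP-YAP, hold no match. The higher-scoring loop in PCDH9 joined chr13:66835001-66840000 in intron 3 to chr13:67225001-67230000, which holds exon 1 of the canonical transcript, over 390 kb.

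Loops that were absent from both control lists and present in both sorbitol lists numbered 2. In GPHN, which encodes gephyrin, a scaffold of inhibitory synapses, chr14:66570001-66575000 in intron 1 was joined to chr14:66685001-66690000 in intron 2 over 115 kb. In NFIA chr1:60975001-60980000, outside the canonical transcript, was joined to chr1:61130001-61135000 in intron 2 over 155 kb. Their score percentiles in the WT and eGFP-YAP sorbitol lists were 59.4 and 52.3 for GPHN and 36.0 and 8.45 for NFIA, and neither loop had a motif at an anchor. Of all sorbitol loops 79.9% in WT and 68.4% in eGFP-YAP had no control partner in the same line. These shares look at each line alone, and no share of all loops that meet the condition in both lines is given here.

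The opposite case, present in both control lists and absent from both sorbitol lists, comprised 166 loops in 101 genes. Of all control loops 92.2% in WT and 90.7% in eGFP-YAP had no sorbitol partner in the same line. Those shares do not ask for presence in both control lists, and no share of all loops that meet the full condition is given here. The sorbitol lists are also shorter, so this count and that of sorbitol loops are not on an equal footing. The highest-scoring of the 166 lay in CAMTA1, a calmodulin-binding transcription activator. It joined chr1:7665001-7670000, which holds exon 9 of 23, to chr1:7750001-7755000, which holds exon 20, over 85 kb. Its score percentile was 99.0 in WT control and 98.1 in eGFP-YAP control, and its facing motifs are printed above. The next in RABGAP1L joined chr1:174255001-174260000 in intron 7 to chr1:174745001-174750000 in intron 17 over 490 kb, with percentiles of 97.7 and 97.2. In KCNIP4, a potassium channel-interacting protein, both anchors, chr4:21500001-21505000 and chr4:21770001-21775000, lie in intron 1, 270 kb apart, and neither holds the motif.

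The loop of ENSG00000282278 joined chr4:53910001-53915000 to chr4:54215001-54220000, both in intron 12, over 305 kb. That of NAV3, a neuron navigator protein that binds microtubules, joined chr12:77720001-77725000, outside the canonical transcript, to chr12:77925001-77930000 in intron 1 over 205 kb. Both are loops whose right anchor carries a match on the minus strand.

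The longest loop of each list differed. In WT control it spanned 1505 kb in MACROD2, from chr20:14135001-14140000 in intron 3 to chr20:15640001-15645000 in intron 8. In WT sorbitol it spanned 1540 kb in LRP1B, from chr2:140585001-140590000 in intron 43 to chr2:142125001-142130000 in intron 1, with a score percentile of 90.9. In eGFP-YAP control it spanned 1435 kb in PCDH15, a cadherin of the inner ear, and in eGFP-YAP sorbitol 695 kb in HPSE2, a relative of heparanase. None of these 4 loops had a partner in the other condition of its line or in the same condition of the other line, and none had a motif at an anchor.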

How the data were processed

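Hi-C loop lists of 4 conditions were analysed. DNA was cut with MboI per the labels' protocols, and hg38 is the build per the submitters' processing notes. Per the file headers the columns carry the names that the SIP loop caller writes. Its version and settings, the aligner and the replicates pooled are not given in the sources used here. The deposited coordinates give both 5 kb anchors of each loop (sorted in 4 loops, 2, 1, 1 and 0 of the lists, where they were reversed). The peak score deposited by the authors has no fixed scale and was used for ranks within a list. The deposited probability of enrichment, a fraction, was at least 0.900 in every list. The number of per-sample columns left without a group was 0.

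Gene bodies, exons and starts were those of GENCODE 44. Loops matched when both anchor centres lay within 10 kb. Shares and ratios have exact Clopper-Pearson 95% intervals, medians have order-statistic intervals. Membership, matching and motif search were tested on simulated data. Named genes were the 12 and 10 with the most control and sorbitol loops, the longest with and without loops, up to 4 per gene list and 3 on each side of the length limit, with exceptions given in the text and 1 gene not reported here. Named loops were the 5 highest-scoring of each kind, at most 1 per gene, and the longest of each list. The members and lists were chosen with earlier results of these data known, and the loop classes without a gene start, with 1 anchor inside or at the gene's own start, the GC and span classes and the matching to shortened lists were added after seeing the data. Alternatives were the length limit, gene start rule, score minimum, merging, matching distance, list length, motif and annotation. Python 3.11.15, pandas 2.3.3, scipy 1.17.1 and matplotlib 3.10.9 were used.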

Additional observations from a re-analysis of the deposited data

Results flagged for a closer look

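Sorbitol minus control was taken in each line for 49 measures of these loops. In 4 of them WT and eGFP-YAP went in opposite directions, and the difference was not tested, since each line has 1 list per condition. The median score percentile of loops inside very long genes changed by -1.21 in WT (44.5 in control, 43.3 with sorbitol) and by 6.93 in eGFP-YAP (45.6 and 52.5). The share of anchors with a transcript start changed by -0.212 percentage points in WT (6.09 and 5.88%) and by 2.62 in eGFP-YAP (6.37 and 8.99%). The median GC content of the anchors changed by -0.705 percentage points in WT (39.65 and 38.9%) and by 0.675 in eGFP-YAP (38.8 and 39.5%). The intervals of control and sorbitol overlapped within each line for these 3 measures. The number of loops in LRP1B, a common fragile site gene, changed by 3 in WT (1 and 4) and by -1 in eGFP-YAP (3 and 2). The 4 WT sorbitol loops of LRP1B spanned 125 to 1540 kb and stood at score percentiles of 79.6 to 99.8, and none had a partner in the WT control or eGFP-YAP sorbitol list.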

How the results depend on the processing

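Of 134 values recomputed under the alternatives, 88 stayed within the limits set (the interval of the value reported or, for a count, 1.5 times it) and 46 did not. As reported and under the 5 alternatives with both ratios, the ratio inside very long genes lay below that of other loops without a gene start in both lines, although in WT the intervals overlapped with a gene length minimum of 1 Mb (0.256 against 0.289) and in the upper 50% of each list by score (0.219 against 0.271). With the control list shortened to the length of the sorbitol list the ratios were 0.640 in WT and 0.309 in eGFP-YAP, where all loops together give 1 by construction. With the minimum of 1 Mb the lists, in the order WT control, WT sorbitol, eGFP-YAP control and eGFP-YAP sorbitol, held 168, 43, 215 and 15 loops in 38, 17, 52 and 7 genes, the median spans were 305, 315, 315 and 390 kb, and 36.9% of WT control loops were shared between lines. The upper 50% by score held 269, 59, 283 and 27 loops, with sorbitol loops in 33 and 19 genes and median spans of 330 kb in WT sorbitol and 315 and 355 kb in the eGFP-YAP lists. Matching at 0 kb gave 0.164 and 0.647% of control loops called again in WT and eGFP-YAP, 99.2 and 91.5% of sorbitol loops without a partner, and 4.76 and 4.69% of control loops shared between lines. At 25 kb 9.52% of WT control loops were called again, 53.1% of WT sorbitol loops had no partner, and 46.1 and 44.7% of control loops were shared between lines. Anchors widened by 5 kb on each side had the motif in 39.6, 27.3, 47.5 and 37.1% of cases, against 17.3% of bins, and with no mismatch the anchors had it in 4.62, 4.20, 7.21 and 5.62%, against 0.546% of bins. Protein-coding transcripts alone gave exons in 15.6 and 17.8% and transcript starts in 3.69 and 3.75% of WT and eGFP-YAP control anchors, against 11.7 and 1.63% of bins. No paired analysis was possible because each condition has 1 pooled list. Depth, calling settings and the replicates behind each list are unknown, so that fewer loops in a list cannot be told apart from a shallower list, and the counts of 0 to 4 loops in single genes allow no statement on the cells.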
